A study of Homo sapiens with 6 samples.

Results

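The genes of cellular iron uptake, storage, export and sensing were followed in HepG2 cells, a human hepatocarcinoma line of wild-type genotype, given glycine (10 mM) or vehicle for 24 h. The study's standard medium for these cells already contained glycine at a lower concentration, so the vehicle cells were not without it. A set of 10 genes was taken by symbol from the 57500 genes counted. It held the transferrin receptors TFRC and TFR2, the ferritin chains FTH1 and FTL, and the transporters SLC40A1 and SLC11A2. The others were IREB2, HFE, BMP6 and NCOA4, which take part in iron sensing, in iron signalling or in its release from ferritin. RNA was sequenced in 6 libraries, 3 per group, each a separate culture of a single cell line. The comparison asks which of these transcripts glycine changed.

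Iron enters most cells bound to transferrin, which is taken up by transferrin receptor 1, and leaves the endosome through a divalent metal transporter. Surplus iron is held inside ferritin shells of heavy and light chains, is released when ferritin is degraded in lysosomes, and leaves the cell through ferroportin. Iron regulatory proteins bind short hairpins in the mRNAs of these genes, the iron-responsive elements (IREs), when iron is scarce: binding in a 5′ UTR blocks translation, and binding in a 3′ UTR protects the mRNA from decay. In the liver, hepatocytes also set the iron level of the body, because HFE, transferrin receptor 2 and BMP6 signalling feed into the production of hepcidin, the hormone that removes ferroportin from membranes.

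Of these transcripts, HFE fell, to a level 1.41-fold lower, and 0 of the 10 genes rose past the threshold of the test used (edgeR quasi-likelihood test, Benjamini-Hochberg adjusted p under 0.05). One call among 10 genes, or 10%, compares with 13.3% of all 15492 genes tested (6.54% called lower and 6.71% called higher). The mRNAs of both ferritin chains, TFRC, SLC11A2 and IREB2 differed between groups by less than the spread between libraries, and their 95% intervals, 5 of 10, lay within 0.8 to 1.2 times the vehicle level. The median log2 change of the 10 genes was -0.02, against 0.00 for all tested genes. Values are given as CPM, counts per 1000000 of the scaled library size, and the changes are those of glycine relative to vehicle, with ± giving the standard error of a log2 change.

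**Figure D1:**
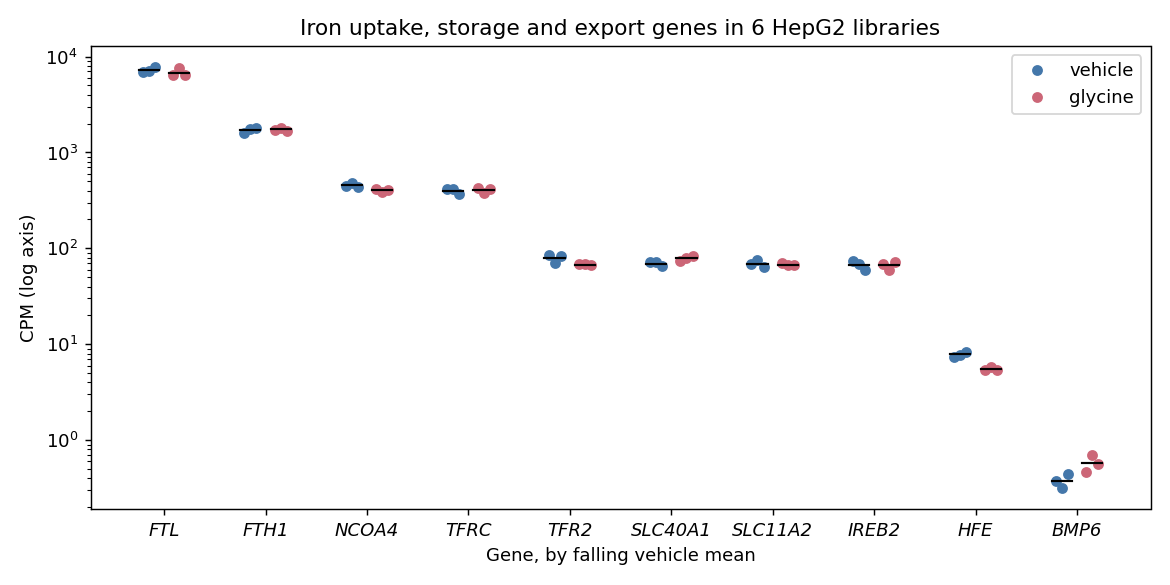
CPM of the 10 iron genes (log axis) in the 3 vehicle libraries (blue) and 3 glycine libraries (red), with a black bar at each group mean. The vehicle mean was 7211 CPM for FTL and 0.377 CPM for BMP6, and the groups did not overlap for TFR2, SLC40A1, HFE, BMP6 and NCOA4, or 5 of 10 genes against 31.6% of all tested genes.

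The libraries held between 31795489 and 58815986 counts, so 3 counts were worth between 0.051 and 0.0943 CPM. Such limits describe counting error alone, since no molecular identifiers are named in the sources and reads need not be separate molecules. The 9 hepatocyte markers checked, among them ALB, APOB and SERPINA1, were above 1 CPM in every library, with summed levels of 27874 to 32018 CPM with vehicle and 24414 to 28042 CPM with glycine. Of the 9, 3 were called (33.3%, against 13.3% of all tested genes), FGA higher (log2 change 0.35) and APOA1 and TTR lower (-0.26 and -0.32). ALB, with overlapping groups, had a log2 change of -0.49 (edgeR adjusted p = 0.0764). Of 12 markers of other liver cells, 7 were under 1 CPM in every library, and the T cell marker CD3E had 0 counts in all 6. Nearly all of their summed level, 586 to 672 CPM with vehicle and 856 to 928 CPM with glycine, came from the keratin KRT19. Without KRT19 the sum was 33.7 to 37.4 CPM with vehicle and 27.5 to 28.8 CPM with glycine, and 4 of the 6 of these markers high enough to test were called, with COL1A1, CD68 and KRT19 higher and PDGFRB lower, against 13.3% of all tested genes. Other genes share 85.8% of the exon length of CD68 (81.7% on the same strand), and CD68 held 43 to 117 counts in a library. The part of the cell markers in the results below was not tested. In bulk RNA of this kind, fewer cells expressing a gene and less RNA per cell cannot be told apart.

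The IREs link some of these genes by sequence. The UTRs of GENCODE 29 protein-coding transcripts were searched on the transcript strand for a C, 5 bases, the loop CAGTGN, and 5 bases able to pair with the first 5, G with T pairs allowed. The pattern was found in the 5′ UTR of 36 of 19043 genes (0.189%) and in the 3′ UTR of 132 of 19146 genes (0.689%). It was present in 4 of the 10 iron genes, HFE not among them, and in 4 of 89 further iron genes, TF among them. The TF match was in 1 annotated transcript, with its loop 14064 bases after the stop codon. This match began at chr3:133792674, beyond the end of TF in the gene counts (133779006). The sites of the 4 iron genes are shown because IREs are the handle by which iron controls mRNAs that carry them. They are printed 5′ to 3′ in transcript sense as DNA (GRCh38) with the loop in capitals.
FTH1, 5′ UTR, chr11:61967574-61967601, minus strand: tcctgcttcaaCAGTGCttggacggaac
FTL, 5′ UTR, chr19:48965336-48965363, plus strand: tcttgcttcaaCAGTGTttggacggaac
SLC40A1, 5′ UTR, chr2:189580661-189580688, minus strand: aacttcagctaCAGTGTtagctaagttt
TFRC, 3′ UTR, chr3:196050979-196051006, minus strand: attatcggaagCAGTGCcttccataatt
TFRC, 3′ UTR, chr3:196050575-196050602, minus strand: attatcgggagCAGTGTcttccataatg
TFRC, 3′ UTR, chr3:196050510-196050537, minus strand: tgtatcggagaCAGTGAtctccatatgt
TFRC, 3′ UTR, chr3:196050463-196050490, minus strand: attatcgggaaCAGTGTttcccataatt

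FTH1, FTL and SLC40A1 each held 1 match near the start of the mRNA: counted in 1 annotated transcript of each gene, 41 bases of FTH1, 46 bases of FTL and 210 bases of SLC40A1 came before the loop. TFRC held 4 matches, which need not be all of its IREs. In 1 annotated transcript the loops of these matches began 946 to 1462 bases after the stop codon. SLC11A2, which is known for an IRE in some of its isoforms, had no match, which says only that this pattern is not in its annotated UTRs. EPAS1, also known for an IRE, had no match either. A match is a description of letters and was not measured as a binding site here.

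Of the uptake genes, TFRC encodes transferrin receptor 1, the main route of transferrin iron into dividing cells. It lies on chromosome 3 from 196027183 to 196082189 (ENSG00000072274, GRCh38). TFRC was at 420.5, 411 and 365 CPM in the vehicle libraries and at 430.2, 376 and 420.03 CPM in the glycine libraries. The groups overlapped, with the lowest value in vehicle replicate 3 and the next lowest in glycine replicate 2. Its log2 change was 0.04 ± 0.0773 (edgeR adjusted p = 0.813), and the 95% interval of the fold change was 0.913 to 1.15.

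TFR2 (ENSG00000106327, chromosome 7, 100620416 to 100642779) encodes transferrin receptor 2, a hepatocyte and erythroid receptor that senses transferrin iron and has no match to the IRE pattern. It was at 85.9, 70.6 and 82.5 CPM with vehicle and at 68.2, 68.1 and 66.8 CPM with glycine. Every glycine library was below every vehicle library, but vehicle replicate 2 lay much nearer to the glycine libraries than the other 2 did. The log2 change of -0.23 ± 0.0746 did not pass the threshold (edgeR adjusted p = 0.0546). Without vehicle replicate 2 it was -0.31 and was called (edgeR adjusted p = 0.00823), and it was called in 3 of the other 13 alternatives, so TFR2 stood at the border of the test.

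SLC11A2 (ENSG00000110911, chromosome 12, 50979401 to 51028566) encodes DMT1, the divalent metal transporter that carries ferrous iron out of the endosome. Its levels were 68.1, 76.4 and 63.2 CPM with vehicle and 70.1, 66.9 and 66.4 CPM with glycine. The glycine libraries lay inside the vehicle range. The log2 change was -0.03 ± 0.0738 (edgeR adjusted p = 0.838). Isoforms of SLC11A2 with and without an IRE were counted together and cannot be told apart in these values.

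Of the storage genes, FTL (ENSG00000087086, chromosome 19, 48965301 to 48966878) encodes the ferritin light chain, which helps iron to mineralise inside the shell. FTL was at 6836, 7008 and 7789 CPM with vehicle and at 6412, 7541 and 6429 CPM with glycine. A glycine library, replicate 2, lay inside the vehicle range while the others lay below it. The log2 change was -0.09 ± 0.0990 (edgeR adjusted p = 0.627), with a 95% interval of 0.813 to 1.09 for the fold change. FTH1 (ENSG00000167996, chromosome 11, 61959718 to 61967660), the heavy chain with the ferroxidase centre, was at 1595, 1769.6 and 1815 CPM with vehicle and at 1727, 1811 and 1683 CPM with glycine. The glycine values lay within the vehicle range, and the log2 change was 0.01 ± 0.0795 (edgeR adjusted p = 0.947, interval of the fold change 0.895 to 1.14).

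The ferritin counts carry limits of their own. BEST1, on the other strand, covers 62.4% of the exon length of FTH1, and the strand setting of the counting was not given, so part of the FTH1 reads may be missing from its level. BEST1 itself held 3 to 13 counts in a library, against 55124 to 105988 for FTH1. The ferritin genes have many processed pseudogenes, whose reads can be lost or misplaced. The 25 FTH1 pseudogene rows together held 0.277% to 0.397% of the FTH1 count in a library, and the 16 FTL pseudogene rows 0.0836% to 0.106% of the FTL count. The most abundant, FTH1P20 and FTLP3, had vehicle means of 1.45 and 4.77 CPM and log2 changes of -0.22 and -0.07. Of the 11 pseudogenes tested, 0 were called, against 13.3% of all tested genes.

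Per kilobase of exon, FTL was the more abundant chain in every library. The ratio of FTL to FTH1, in CPM per kb, was 9.91, 9.16 and 9.92 with vehicle and 8.58, 9.63 and 8.83 with glycine. These groups overlapped (exact permutation test, two-sided, p = 0.2, where 0.1 is the smallest p that 3 against 3 libraries allow). The ratio of TFRC to TFR2 on the same scale was 3.24 ± 0.46 with vehicle and 3.88 ± 0.285 with glycine (SD, n = 3, exact permutation p = 0.2).

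NCOA4 (ENSG00000266412, chromosome 10, 46005088 to 46030714) encodes the receptor that delivers ferritin to lysosomes for iron release. It was at 451, 484 and 436 CPM with vehicle and at 420.5, 384 and 403 CPM with glycine. All glycine libraries were below all vehicle libraries, by a small margin between glycine replicate 1 and vehicle replicate 3. The log2 change of -0.18 ± 0.0691 did not pass the threshold (edgeR adjusted p = 0.102), nor in any of 14 alternatives, where the adjusted p ranged from 0.0533 to 0.291.

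SLC40A1 (ENSG00000138449, chromosome 2, 189560579 to 189583758) encodes ferroportin, the iron exporter that hepcidin binds. Its levels were 71.4, 71.4 and 65.5 CPM with vehicle and 73.6, 79.1 and 83.5 CPM with glycine. The glycine libraries were all above the vehicle libraries, although glycine replicate 1 exceeded the highest vehicle value by little. The log2 change was 0.18 ± 0.0681 (edgeR adjusted p = 0.0999), and the adjusted p ran from 0.0777 to 0.351 over the alternatives.

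**Figure D2:**
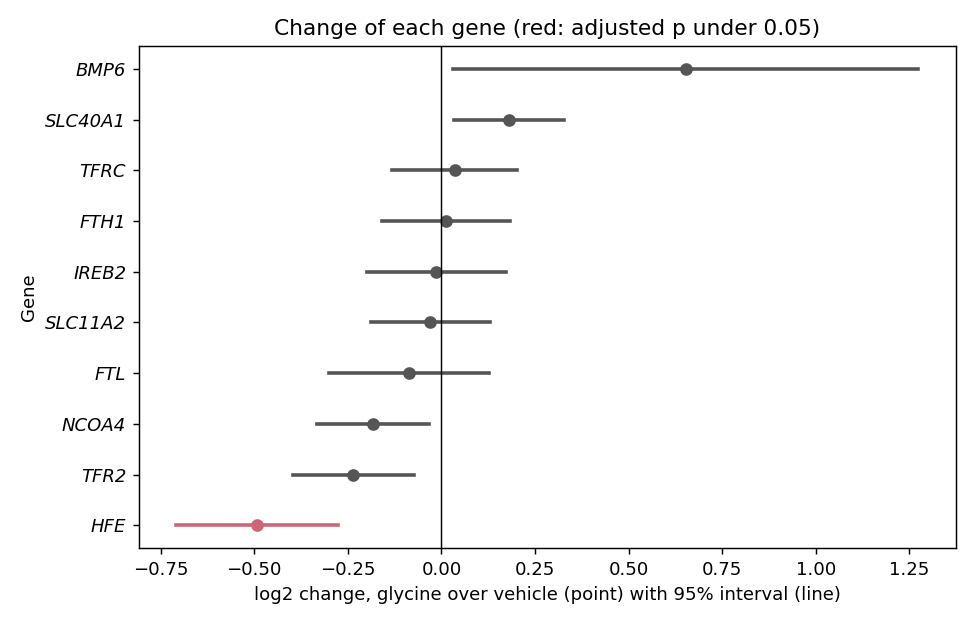
The log2 change of each of the 10 iron genes, glycine over vehicle (point), with its 95% interval from the edgeR fit (line). HFE (red, -0.49) is the gene past the threshold, the intervals of TFRC, FTH1, IREB2, SLC11A2 and FTL span 0, and that of BMP6 is the widest.

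Of the sensing genes, IREB2 (ENSG00000136381, chromosome 15, 78437431 to 78501456) encodes iron regulatory protein 2, which binds the IREs shown above. It was at 73.3, 68.3 and 60.1 CPM with vehicle and at 69.05, 59.5 and 71.3 CPM with glycine. The groups overlapped almost fully, and the log2 change was -0.01 ± 0.0859 (edgeR adjusted p = 0.939).

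HFE (ENSG00000010704, chromosome 6, 26087281 to 26098343) encodes an MHC class I-like protein that binds transferrin receptors and takes part in the control of hepcidin. HFE was at 7.31, 7.80 and 8.35 CPM with vehicle, from 256, 272 and 300 counts. With glycine it was at 5.42, 5.78 and 5.43 CPM, from 173, 338 and 229 counts. The groups did not overlap, and the gap between them was wider than the spread within either. The log2 change was -0.49 ± 0.10 (edgeR adjusted p = 0.00595), with a 95% interval of 0.612 to 0.825 for the fold change. The call held in all 14 alternatives, with a log2 change between -0.55 and -0.44 and an adjusted p between 0.000782 and 0.0244.

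The 3 tested genes whose library values, relative to the vehicle mean, lay closest to those of HFE were TMEM120A, ASPDH and MTARC2. Their root mean square differences from HFE over the 6 libraries were 0.0309, 0.0385 and 0.0416 on the log2 scale, and their log2 changes were -0.50, -0.50 and -0.47.

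BMP6 (ENSG00000153162, chromosome 6, 7726797 to 7881422), the signalling protein that induces hepcidin and is made in liver mainly by endothelial cells, was the lowest of the set per kilobase of exon. It had 13, 11 and 16 counts with vehicle and 15, 41 and 24 counts with glycine, or 0.371, 0.315 and 0.445 CPM against 0.470, 0.701 and 0.569 CPM. The glycine libraries were above the vehicle libraries in CPM, but glycine replicate 1 and vehicle replicate 3 were separated by less than the value of a single count. The log2 change of 0.65 ± 0.288 did not pass the threshold (edgeR adjusted p = 0.162), and the 95% interval of the fold change was wide, 1.02 to 2.42. The endothelial markers were low as well, with CDH5 at 0.632 ± 0.128 CPM and PECAM1 at 4.39 ± 0.0935 CPM in the vehicle libraries (SD, n = 3), and neither was called.

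In all, the groups did not overlap for 5 of the 10 genes, TFR2, SLC40A1, HFE, BMP6 and NCOA4, against 31.6% of all tested genes. The same 5 genes had an unadjusted p under 0.05 (edgeR), as did at least 4119 of all 15492 tested genes. That number is the rank by p of the pseudogene FTLP14, at an unadjusted edgeR p of 0.0461. Ordered per kilobase of exon, the vehicle means were 8213 CPM per kb for FTL, 850.5 for FTH1, 112 for NCOA4, 50.6 for TFRC, 16.04 for SLC40A1, 15.7 for TFR2, 7.05 for SLC11A2, 6.22 for IREB2, 1.38 for HFE and 0.136 for BMP6. SLC40A1 and TFR2 did not differ beyond their spread (SD 0.78 and 1.60 CPM per kb, n = 3), nor did SLC11A2 and IREB2 (SD 0.681 and 0.616). Exon length here is that of all annotated exons of a gene, which a single mRNA need not contain in full. The limit given above for FTH1 reads holds for this order too.

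The wider iron network was read from 89 further genes in 8 lists. Of the 78 that were high enough to test, 2 were called higher and 6 lower, or 10.3% against 13.3% of all tested genes, and their median log2 change was -0.04. The count called lower was 3 without glycine replicate 3, 4 without vehicle replicate 1, glycine replicate 1 or glycine replicate 2, and 9 with no filter beyond 1 count, where 4 were called higher. The count called higher reached 3 when vehicle replicate 2, glycine replicate 2 or vehicle replicate 3 was left out. The other 11 were at most 0.258 CPM in any library, and a change in them was not detectable at this depth. They include FTMT (mitochondrial ferritin), at 0 counts in all 6 libraries, which allows at most 0.051 CPM in the deepest of them, and the hepcidin co-receptor HJV.

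**Figure D3:**
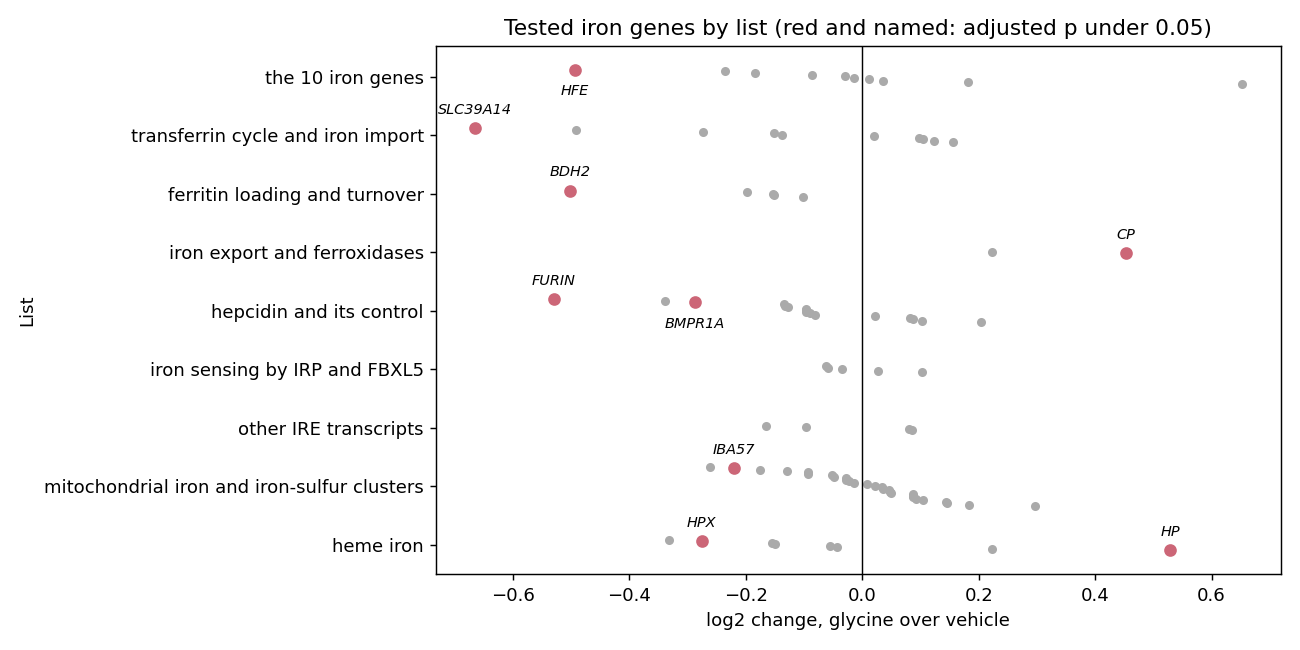
The log2 change, glycine over vehicle, of every tested gene in the set of 10 and in the 8 further lists, 1 point per gene, with genes past the threshold in red and named. Most points lie between -0.3 and 0.3, and the called genes run from -0.67 for SLC39A14 to 0.53 for HP.

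In the transferrin cycle and iron import list, 1 of 10 tested genes was called, 10% against 13.3% of all tested genes. SLC39A14 encodes ZIP14, a zinc transporter that also imports iron not bound to transferrin, and lies on chromosome 8 from 22367249 to 22434129 (ENSG00000104635). It was at 1076, 974 and 955 CPM with vehicle and at 633, 599 and 663 CPM with glycine. The highest glycine library was far below the lowest vehicle library. SLC39A14 changed by -0.67 ± 0.0758 on the log2 scale (edgeR adjusted p = 7.88e-05), and the call held in all 14 alternatives. Per kilobase of exon, SLC39A14 was at 144 CPM per kb with vehicle and 91.0 with glycine, above TFRC at 50.6 and 51.8 and SLC11A2 at 7.05 and 6.90. Its close relative SLC39A8 reached at most 1.12 CPM in a library and was not called.

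TF encodes transferrin itself, the plasma iron carrier made by hepatocytes. It was at 2268, 1561 and 2336 CPM with vehicle and at 1512, 1741 and 1850.2 CPM with glycine. Vehicle replicate 2 lay inside the glycine range. The log2 change was -0.27 ± 0.132 (edgeR adjusted p = 0.205), and without vehicle replicate 2 it was -0.44 and called (edgeR adjusted p = 0.00869). The adjusted p over the alternatives ran up to 0.464. STEAP3, the endosomal ferrireductase, was not called (log2 change -0.15, edgeR adjusted p = 0.145).

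Among genes of ferritin loading and turnover, 1 of 5 tested genes was called, 20% against 13.3% of all tested genes. All 5 had log2 changes below 0, as did 7625 of all 15492 tested genes. BDH2, an enzyme reported to make a small iron-binding molecule, was at 11.5, 12.6 and 12.2 CPM with vehicle and at 8.27, 9.02 and 8.22 CPM with glycine. The groups were well apart. The fitted log2 difference was -0.50 ± 0.0871 (edgeR adjusted p = 0.00211), past the threshold in all 14 alternatives. The other 4, the iron chaperones PCBP1 and PCBP2, the ubiquitin ligase HERC2 that degrades NCOA4 and the autophagy receptor TAX1BP1, had log2 changes between -0.20 and -0.10.

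In the list of iron export and ferroxidases, CP rose. CP encodes ceruloplasmin, the copper ferroxidase secreted by hepatocytes that oxidises exported iron for loading onto transferrin. It was at 40.2, 37.4 and 34.5 CPM with vehicle and at 51.3, 44.3 and 58.04 CPM with glycine. The groups did not overlap, and the glycine libraries were spread more widely than the vehicle libraries. CP had a log2 change of 0.45 ± 0.0936 (edgeR adjusted p = 0.00667) and was called in all 14 alternatives. HPS3 on the other strand covers 19.4% of the exon length of CP.

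Hepcidin mRNA itself, HAMP, was not called. It was at 60.2, 61.1 and 66.2 CPM with vehicle and at 56.05, 66.04 and 53.2 CPM with glycine, with overlapping groups. The fitted log2 difference was -0.10 ± 0.082 (edgeR adjusted p = 0.496, interval of the fold change 0.828 to 1.06). Of the 16 tested genes of hepcidin control, 2 were called, 12.5% against 13.3% of all tested genes, and both were lower. FURIN, the protease that processes pro-hepcidin and cleaves hemojuvelin, was at 406, 408 and 392 CPM with vehicle and at 274, 295 and 266 CPM with glycine. No glycine library came near the vehicle range. Its fitted log2 difference was -0.53 ± 0.0656 (edgeR adjusted p = 0.000152) and passed in all 14 alternatives. BMPR1A, a BMP type I receptor of hepatocytes, was at 50.5, 47.96 and 42.8 CPM with vehicle and at 40.9, 36.2 and 38.9 CPM with glycine. The groups were adjacent without overlap, and the fitted log2 difference of -0.29 ± 0.0766 was called (edgeR adjusted p = 0.0259). The BMPR1A call was lost without vehicle replicate 1 (edgeR adjusted p = 0.0893), vehicle replicate 2 (0.0594), glycine replicate 2 (0.105) or glycine replicate 3 (0.0632). The BMP target genes SMAD7 and ID1 had log2 changes of -0.34 and 0.20 and were not called (edgeR adjusted p of 0.0948 and 0.124).

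The sensing machinery differed little between groups. ACO1, which encodes iron regulatory protein 1, averaged 80.5 ± 4.35 CPM under vehicle against 77.1 ± 1.90 CPM under glycine (SD, n = 3). The fitted log2 difference was -0.06 ± 0.0633 (edgeR adjusted p = 0.577). FBXL5, the iron-binding subunit of the ligase that degrades iron regulatory protein 2, had a log2 change of 0.10 ± 0.0705 (edgeR adjusted p = 0.38). Of the 5 genes in this list, 0 were called, against 13.3% of all tested genes, and the log2 changes lay between -0.06 and 0.10. Of the 4 tested transcripts known for an IRE outside the set of 10, 0 were called, against the same 13.3%. Their log2 changes ran from -0.17 for CDC14A to 0.08 for EPAS1. Lists this short cannot show a share below that of all tested genes.

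Among 28 genes of mitochondrial iron and of iron-sulfur cluster assembly, 1 was called lower and 0 higher, 3.57% against 13.3% of all tested genes. IBA57, a late-acting assembly factor, averaged 25.9 ± 0.702 CPM under vehicle against 22.2 ± 0.459 CPM under glycine (SD, n = 3). Its fitted log2 difference was -0.22 ± 0.067 (edgeR adjusted p = 0.0454). That call held in 4 of 14 alternatives and was lost in each of the 6 fits that left out a library, where the adjusted p ran from 0.0513 without vehicle replicate 3 to 0.131 without glycine replicate 3. The assembly scaffold ISCU had a log2 change of -0.05 and was not called.

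In the heme iron list, HP rose and HPX fell. HP encodes haptoglobin, which binds free haemoglobin, and was at 95.3, 86.6 and 99.2 CPM with vehicle and at 131, 137 and 137 CPM with glycine. No values overlapped, and the fitted log2 difference of 0.53 ± 0.0661 (edgeR adjusted p = 0.00016) was called in all 14 alternatives. HP has a near-identical neighbour, HPR, so reads could have been split between them. HPX, which encodes the heme carrier hemopexin, averaged 27.1 ± 1.57 CPM under vehicle against 22.3 ± 1.26 CPM under glycine (SD, n = 3). Its fitted log2 difference was -0.28 ± 0.0745 (edgeR adjusted p = 0.0274). The HPX call was lost without vehicle replicate 1 (edgeR adjusted p = 0.0508), vehicle replicate 3 (0.0815), glycine replicate 1 (0.105) or glycine replicate 3 (0.0798). HMOX1, heme oxygenase 1, which frees iron from heme, was at 60.3, 66.8 and 71.1 CPM with vehicle and at 74.4, 79.9 and 76.8 CPM with glycine. Its log2 change of 0.22 ± 0.0708 was just outside the threshold (edgeR adjusted p = 0.0554). It was called in 3 of 14 alternatives, among them the fit without vehicle replicate 3 (edgeR adjusted p = 0.0234).

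**Figure D4:**
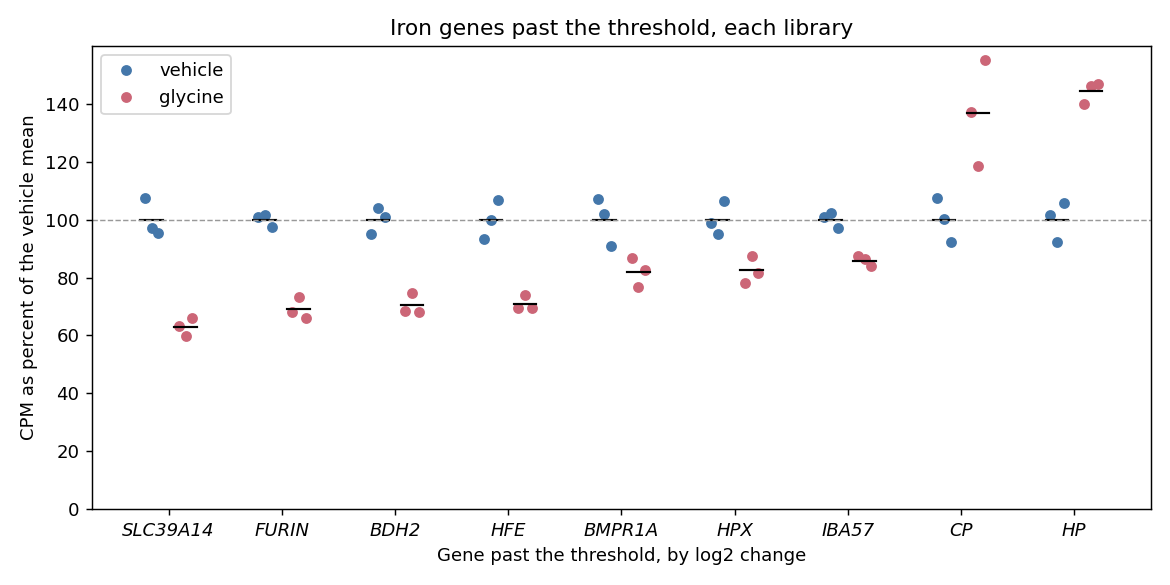
CPM of each library as a percentage of the vehicle mean for the 9 iron genes past the threshold, vehicle in blue and glycine in red, with a black bar at the group mean. Glycine libraries sit at 59.8% to 66.2% for SLC39A14, at 69.3% to 73.9% for HFE and at 119% to 155% for CP, and no gene shown has overlapping groups. The genes were selected by the test on these same libraries, so this separation adds nothing to their calls.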

How the data were processed

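HepG2 cells were treated with glycine or vehicle for 24 h, and RNA was sequenced in 3 libraries per group. The authors deposited raw read counts per gene, 1 table per library. The submitters' processing notes name Trimmomatic 0.36, STAR 2.5.2b, featureCounts of Subread 1.5.2 and GRCh38. The strand setting and annotation were not given in the sources used here. Of the 57500 genes, 56898 were in GENCODE 29, and all 10 iron genes had the same start and end there. Counts were tested with edgeR 4.0.16 in R 4.3.3: expression filter at defaults (minimum count 10, total 15), trimmed mean of M values scaling, quasi-likelihood test on group alone, two-sided, Benjamini-Hochberg over 15492 genes, threshold 0.05. Standard errors were derived from the log2 change and its F statistic, and 95% intervals from the fit's t distribution.

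The iron genes and lists were chosen with earlier results of these data known. The genes named were the 10 genes, TF, HAMP, ACO1, FBXL5, CP and HMOX1, all called genes of the other iron lists, and the gene with the smallest p in each. Other genes were named after their values were seen. Per the labels the replicates were independent, and the study defines these as separate days, so p-values measure the spread between such cultures of 1 line. Between replicates, chi-square per degree of freedom was 6.97 to 26.8, above sampling noise, and none was taken as a duplicate. Counts of 15492 genes were simulated from the vehicle means, with the same biological spread for every gene (coefficient of variation 7.29%). On these the test recovered 188 of 200 genes changed by 1 on the log2 scale and made 5 false calls. The called iron genes changed by less, between -0.67 and 0.53, and recovery of such changes was not simulated. Alternatives were other scalings and filters, DESeq2 1.42.0, limma 3.58.1 with voom, a replicate block, pseudogene counts added to the ferritin genes, and leaving out each library.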

Additional observations from a re-analysis of the deposited data

How the results depend on the processing

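Over 24 iron genes and up to 15 alternatives each, 302 of 337 results kept their direction and side of the threshold, 18 lost their call, 9 gained one and 8 changed sign. The sign changes were in genes that were not called: with 1 library left out, the log2 change ran from -0.0248 to 0.0929 for TFRC, from -0.0537 to 0.0487 for FTH1, from -0.0920 to 0.0476 for SLC11A2 and from -0.0891 to 0.0633 for IREB2, which was also at 0.0012 with total count scaling. The number of the 10 genes called lower was 2, TFR2 being added to HFE, with DESeq2 size factors as scaling, with no filter beyond 1 count and with the DESeq2 test, and 1 to 2 when a library was left out. The further iron genes called higher numbered 4 with no filter and 2 to 3 when a library was left out. Those called lower numbered 9 with no filter and 3 to 7 when a library was left out, lowest without glycine replicate 3. The cause was not tested. The counts of pseudogene rows added to FTH1 and FTL changed neither call.

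Same-numbered libraries deviated from their group means with correlations of -0.0577, -0.0268 and -0.0026 across genes, so the numbers were not taken as pairs. Each library correlated best with a library of another number (0.18 to 0.214). These best partners were mutual: vehicle replicate 1 with glycine replicate 3, vehicle 2 with glycine 1, and vehicle 3 with glycine 2. The other pairs of unlike number had correlations of -0.198 to -0.154. Controls and treated cells were run on each day, but no source says which libraries share a day. No such pairing was fitted, and the main test left it out. With the replicate block, 866 genes were higher and 918 lower, against 1040 and 1013, and HFE stayed the 1 gene of the 10 called. This block pairs libraries by number, so it cannot show what a pairing by day would change. Of the 24 iron genes, IBA57 lost its call under the block (edgeR adjusted p = 0.0876), and the block changed no other call. Depth limits BMP6, with 11 to 41 counts, and the 11 iron genes too low to test.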
